A study of Rattus norvegicus with 6 samples.

Results

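Interferon-stimulated genes and antiviral sensors were examined in rat adipose-derived mesenchymal stem cells, the stromal cells that grow out of fat tissue, here from Sprague Dawley rats. The 42 genes were chosen by symbol, with earlier results of these data known. The list held interferon effectors, RNA and DNA sensors, STAT and IRF factors, interferon-inducible chemokines and 2 genes of class I antigen presentation. All 42 are among the 21857 rows of the deposited count table, 1 of them (Xaf1) with its symbol in capitals. There were 6 RNA sequencing libraries, 3 from cells given vehicle and 3 from cells given 3.432 mM branched chain amino acids (BCAA: leucine, isoleucine and valine) for 12 h. All 6 cultures were kept in BCAA-free DMEM/HG medium with serum and all received 100 µM hydrogen peroxide, an oxidant, so both groups were under oxidative stress. The comparison asks what BCAA changed under that stress, and with a BCAA-free control it cannot tell an excess from an end of shortage. Whether the replicates are separate animals, separate cultures or repeats of 1 culture is not in the labels, and the p-values below therefore rest on a spread that may be technical.

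Cells make interferon after sensing foreign or misplaced nucleic acid. The sensors RIG-I (Ddx58), MDA5 (Ifih1) and LGP2 (Dhx58) bind RNA in the cytosol and signal through the adaptor MAVS and the kinase TBK1 to IRF3, which switches on the interferon genes. Secreted type I interferon then binds the receptor pair IFNAR1 and IFNAR2, and JAK1 and TYK2 phosphorylate STAT2, which with IRF9 forms part of a complex that binds the interferon-stimulated response element in the promoters of target genes. Some of these targets, among them Rsad2, the Ifit genes, Cxcl10 and Ccl5, can also be switched on directly by IRF3 without any interferon. In stromal cells the same genes belong to the licensing response through which inflammatory signals change what the cells secrete.

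The promoters of the genes that the results turn on are shown because the response element can be read in them. The core of the element was searched on both strands as GAAA, any 2 bases and GAAA again (read from the other strand, TTTC, any 2 bases and TTTC), in RefSeq promoters of assembly GRCr8 (250 bases before to 50 after the annotated start). Of the 42 genes, 32 had an entry, 1 of them (Samd9l) under a newer symbol. At least 1 match was held by 21 of the 32 (65.6%), and by 3.77% of all 27457 promoters in the RefSeq table. The list was picked for the interferon response, so its shares of matches beside those of all promoters describe the list and are not a test. The 250 bases before the start are given 5′ to 3′ with the matches in capitals, for the 3 genes past the threshold and the next 3 by p-value that hold a match. Isg15, Ccl5 and Ifit1 had smaller p-values than Isg20 but no promoter entry, so they could not be searched.
Rsad2, chr6:48788121-48788370, minus strand: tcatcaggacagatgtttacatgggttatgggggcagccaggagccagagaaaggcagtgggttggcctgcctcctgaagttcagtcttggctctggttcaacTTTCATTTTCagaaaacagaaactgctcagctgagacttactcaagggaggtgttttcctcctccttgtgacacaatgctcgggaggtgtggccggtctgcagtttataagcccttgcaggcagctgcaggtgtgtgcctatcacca
Ifit3, chr1:241527076-241527325, plus strand: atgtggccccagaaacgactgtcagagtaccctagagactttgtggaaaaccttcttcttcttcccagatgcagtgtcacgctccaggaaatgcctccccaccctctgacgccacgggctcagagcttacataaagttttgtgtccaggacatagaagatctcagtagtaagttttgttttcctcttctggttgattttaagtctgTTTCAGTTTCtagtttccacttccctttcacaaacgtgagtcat
Oasl, chr12:47356293-47356542, minus strand: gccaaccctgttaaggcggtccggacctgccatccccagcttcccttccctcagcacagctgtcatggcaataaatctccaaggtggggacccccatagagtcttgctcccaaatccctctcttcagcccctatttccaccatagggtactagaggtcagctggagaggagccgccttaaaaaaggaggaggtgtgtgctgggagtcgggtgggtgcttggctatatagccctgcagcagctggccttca
Cxcl10, chr14:15988816-15989065, plus strand: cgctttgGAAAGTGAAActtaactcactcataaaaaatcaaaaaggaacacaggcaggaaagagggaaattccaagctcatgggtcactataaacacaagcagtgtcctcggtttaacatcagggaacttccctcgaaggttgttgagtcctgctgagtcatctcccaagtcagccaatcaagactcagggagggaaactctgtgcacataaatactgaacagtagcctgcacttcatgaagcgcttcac
Isg20, chr1:142239809-142240058, plus strand: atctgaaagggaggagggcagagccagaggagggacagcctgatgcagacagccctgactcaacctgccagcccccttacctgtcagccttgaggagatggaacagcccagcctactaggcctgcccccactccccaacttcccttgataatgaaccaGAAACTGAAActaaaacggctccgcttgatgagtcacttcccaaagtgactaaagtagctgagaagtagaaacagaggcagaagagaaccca
Parp14, chr11:78407884-78408133, plus strand: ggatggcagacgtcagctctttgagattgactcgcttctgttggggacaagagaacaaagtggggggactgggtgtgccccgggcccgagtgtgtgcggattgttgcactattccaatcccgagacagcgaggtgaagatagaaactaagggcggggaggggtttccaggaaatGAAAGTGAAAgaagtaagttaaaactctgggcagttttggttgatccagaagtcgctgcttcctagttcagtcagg
The match of Rsad2 began 147 bases before the start, that of Ifit3 44 bases, that of Isg20 92 bases, that of Parp14 76 bases and that of Cxcl10 243 bases. Oasl held none in this window, which says only that these letters are not there. Oas1a, Oas1b and Bst2 each held a pair of overlapping matches. The gamma-activated site, searched as TTC, any 3 bases and GAA (the same on both strands), was in 8 of the 32 (25.0%) and in 8.68% of all promoters. A match is a description of the letters and not evidence that a factor binds.

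Library totals ran from 12725344 to 15739731 counts, and equal replicate numbers had similar totals in both groups. Vehicle replicate 1 stood apart from the other 5 libraries on the first principal component of all genes (29.1% of the variance), so each call below is given also without it. Counts were compared with edgeR's quasi-likelihood test over all 12298 genes that passed a low-count filter, with Benjamini-Hochberg adjustment over all of them and a threshold of 0.05. Levels are in CPM, counts scaled to a common library size after TMM scaling. Where 3 values follow each other for a group, they are those of replicates 1, 2 and 3 in that order. Levels are not corrected for transcript length, so they are compared between groups and not between genes. The cells carried stromal markers in all libraries (9 of 10 listed markers found, summed level 10510 to 13410 CPM with vehicle and 11400 to 12310 CPM with BCAA). Col1a1 was the largest part of that sum, at 7450 CPM (vehicle) and 6921 CPM (BCAA). Vim was lower in every BCAA library (means 1404 and 1173 CPM) and Cd44 higher (1457 and 1575 CPM), and neither passed the threshold given above. Macrophage and leukocyte markers were present too (11 of 12 found), at summed levels of 920.4 to 1090 CPM with vehicle and 857.5 to 923.3 CPM with BCAA. Most of that sum was Lyz2, at 713 CPM (vehicle) and 621 CPM (BCAA). The leukocyte gene Ptprc and the macrophage gene Csf1r were at 15.1 and 16.8 CPM with vehicle and 16.2 and 17.9 CPM with BCAA. In sign, 7 of the 11 were higher with BCAA and 4 lower. Lyz2 and Cd14 (means 108 and 100 CPM) were lower in every BCAA library, and Mrc1 (29.5 and 32.7 CPM) was higher. None of the 11 was at 0 in all libraries and none passed the threshold, and the part of these cells in the results was not tested. Smooth muscle and pericyte markers (6 of 6 found) summed to 129.4 to 136.2 CPM with vehicle and 97.39 to 102.9 CPM with BCAA. Acta2, smooth muscle actin, fell among them, and their part in the results was not tested either. Of the endothelial markers 4 of the 5 found, and of the adipocyte markers Adipoq, Plin1, Cfd and Lep, were under 1 CPM in every library. In bulk RNA, fewer cells of a type and less RNA per cell cannot be told apart. Of 10 lymphocyte and plasmacytoid dendritic cell markers, Cd3e, Cd3g, Nkg7, Klrd1, Ms4a1 and Siglech had no count in any library. Among the rest, Tcf4 was at 9.63 to 12.4 CPM, Cd4 at 0.861 to 1.28 CPM and Cd8a at 0.696 to 1.21 CPM. Cd79a had 1 count, in vehicle replicate 1.

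Of the 42 genes, 35 passed the low-count filter, and 3 of these rose with BCAA: Rsad2, Ifit3 and Oasl. None fell, with edgeR or with DESeq2, and 32 did not pass. Over all genes tested 0.0569% rose and 0.171% fell by the same rule, 7 and 21 genes. Members were thus 3 of the 7 genes that rose, a share that moved with the processing: 6 of 57 with DESeq2 and also without the low-count filter, 6 of 216 without vehicle replicate 1, and 1 of 2 without any other library. Rsad2 was called throughout, while Ifit3 and Oasl were lost without any one library other than vehicle replicate 1 and with the replicate number as a block (adjusted p = 0.17 and 0.162 with edgeR). At an unadjusted p under 0.05 there were 10 of 35 higher and 1 lower, beside 5.95% of all genes higher and 5.84% lower. In sign, 29 of the 35 were higher and 6 lower with BCAA, and their median log2 fold change was 0.17, beside 0.0035 over all genes tested. All 3 BCAA libraries lay above all 3 vehicle libraries in 11 of the 35 and below them in 1, beside 9.29% and 8.76% of all genes. The filter can keep a gene for its level in 1 group alone, so these 35 do not stand for the 7 that it removed. The members were chosen with earlier results of these data known, so these shares describe this list and are not an independent test. A further 36 interferon-induced genes tested, described below, had a median log2 fold change of 0.02.

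**Figure D1:**
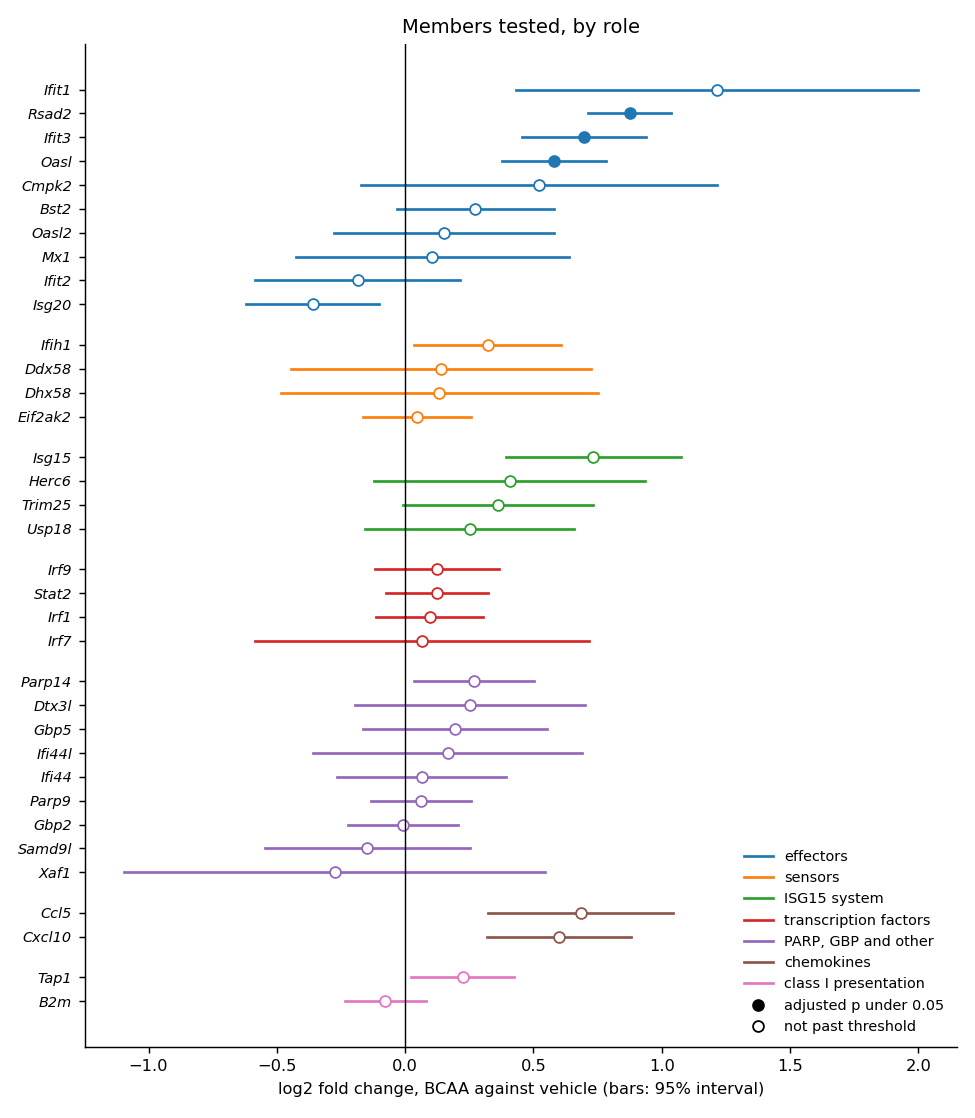
Log2 fold change (x axis, BCAA against vehicle) of the 35 members tested, grouped and coloured by role, with 95% intervals as bars; filled points passed an adjusted p of 0.05. Rsad2, Ifit3 and Oasl are the filled points, and the intervals of the 4 transcription factors all span 0.

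**Figure D2:**
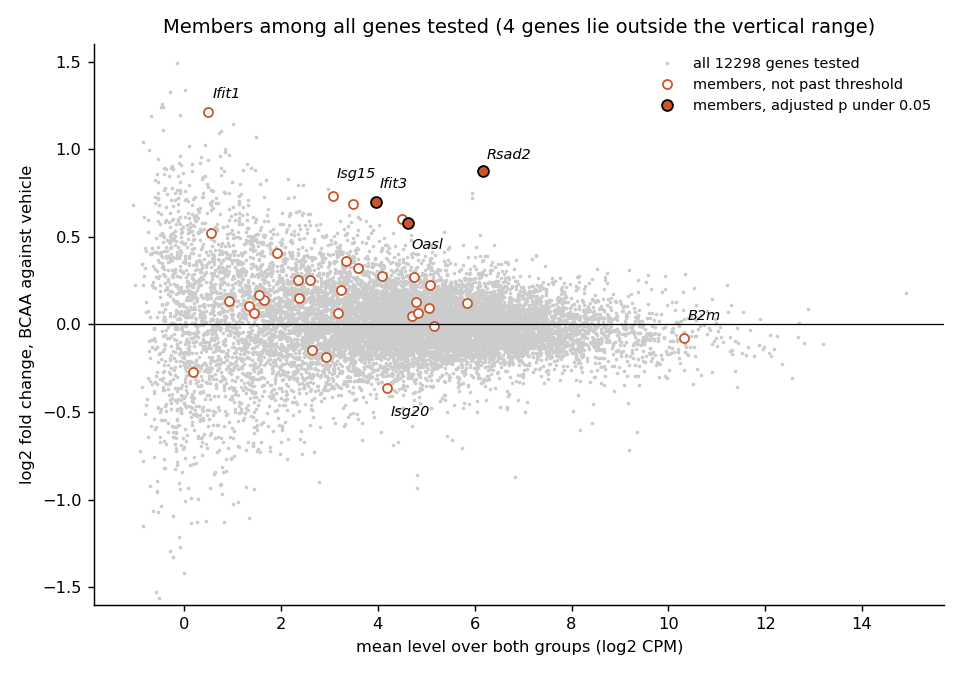
Log2 fold change (y axis) against mean level in log2 CPM (x axis) for the 12298 genes tested (grey) and the 35 members (orange; filled where the adjusted p was under 0.05). Rsad2 lies at the upper edge of genes of its level, and 4 genes lie outside the vertical range.

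Among the effectors, the proteins that block viral replication, Rsad2 had the smallest p. It encodes viperin, a radical SAM enzyme that makes a chain-terminating nucleotide from CTP. Rsad2 was at 53.9, 47.4 and 51.2 CPM with vehicle and 94.2, 95.2 and 89.96 CPM with BCAA. The groups were far apart, with the lowest BCAA library well above the highest vehicle library. The log2 fold change was 0.87 (SE 0.08, 95% interval 0.71 to 1.04), a 1.83-fold rise, with an edgeR adjusted p of 0.000136. Rsad2 was past the threshold in all 12 alternative fits, with a log2 fold change between 0.82 and 0.92 and adjusted p up to 0.0172.

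Cmpk2, the gene next to Rsad2, encodes a mitochondrial kinase that supplies CTP and is usually induced with it. It was near the limit of detection, with 16, 25 and 11 counts with vehicle and 26, 29 and 21 counts with BCAA. In CPM all 3 BCAA libraries (1.64 to 1.84) were above all 3 vehicle libraries (0.862 to 1.59), by a small margin. Its log2 fold change of 0.52 had an interval from -0.17 to 1.22, so a change as large as that of Rsad2 and no change were both within it.

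Ifit3 belongs to the Ifit family, tetratricopeptide proteins that bind viral RNA or support those that do. It was at 12.4, 11.5 and 11.6 CPM with vehicle and at 18.2, 19.9 and 19.5 CPM with BCAA. The groups did not overlap and the spread within each was small (SD 0.532 and 0.871 CPM, n = 3 per group). Ifit3 rose 1.62-fold, a log2 fold change of 0.70 (SE 0.11), with an edgeR adjusted p of 0.017. The call held without vehicle replicate 1 (adjusted p = 0.00179) and was lost when any one of the other 5 libraries was left out (adjusted p from 0.0915 to 0.149). The log2 fold change then stayed between 0.67 and 0.73.

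The neighbours of Ifit3 gave other values. Ifit1, which binds the unmethylated cap of foreign RNA, had 13, 12 and 11 counts with vehicle and 42, 23 and 21 counts with BCAA. The groups did not overlap, and BCAA replicate 1 was highest by far. Its log2 fold change of 1.21 (SE 0.36) was the largest among the members tested and had an adjusted p of 0.185. Without BCAA replicate 1 it was 0.85. Ifit2, which lies next to Ifit3 and whose protein binds RNA as a dimer, was at 9.73, 6.41 and 8.30 CPM with vehicle and 8.30, 5.89 and 7.28 CPM with BCAA. These groups overlapped, and the log2 fold change was -0.19 (interval -0.59 to 0.22). The log2 ratio of Ifit3 to Ifit2 within a library was 0.35, 0.83 and 0.47 with vehicle and 1.12, 1.73 and 1.40 with BCAA. This ratio differed between the groups by 0.87 (2-sided exact permutation test, p = 0.1, the smallest that 3 against 3 libraries can give, and 0.3 adjusted over 3 neighbouring pairs picked after their values were seen). Reads of near-identical Ifit genes may be split or lost in the counting, which was not tested.

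Oasl encodes an oligoadenylate synthetase-like protein, a relative of the enzymes that activate RNase L. It was at 19.5, 20.2 and 19.3 CPM with vehicle and at 29.3, 30.3 and 28.9 CPM with BCAA. The libraries of each group lay close to each other, and the groups did not overlap. Oasl rose 1.49-fold, a log2 fold change of 0.58 (SE 0.09), with an edgeR adjusted p of 0.017. Without vehicle replicate 1 the adjusted p was 0.00231, and without any one of the other 5 libraries it was 0.0713 to 0.153, with log2 fold changes from 0.56 to 0.60.

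Oasl2, the gene next to Oasl, was at 3.87, 5.52 and 5.17 CPM with vehicle and 4.99, 4.88 and 6.41 CPM with BCAA. The groups overlapped and its log2 fold change was 0.15 (interval -0.28 to 0.58). The log2 ratio of Oasl to Oasl2 differed between the groups by 0.41 (2-sided exact permutation test, p = 0.2, and 0.3 adjusted over the 3 pairs), and that of Rsad2 to Cmpk2 by 0.34 (p = 0.4 by the same exact test, also when adjusted). The classical oligoadenylate synthetases were barely present. Oas1a had 8, 2 and 2 counts with vehicle and 11, 1 and 0 with BCAA, Oas1b had 1 to 5 and 5 to 9 counts, Oas3 had 1 to 4 and 0 to 2 counts, and Oas2 had 1 count in all 6 libraries together. None of these 4 genes passed the low-count filter, so their response was not detectable at this depth.

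Isg20, an exonuclease that degrades RNA, did not pass and was lower in sign. It was at 19.1, 22.3 and 19.6 CPM with vehicle and at 16.1, 13.9 and 17.7 CPM with BCAA. All BCAA libraries were below all vehicle libraries. The log2 fold change was -0.36 (SE 0.12) with an adjusted p of 0.267, and over the 12 alternatives the adjusted p was 0.0704 to 0.576. It is the 1 member that was lower with BCAA at an unadjusted p under 0.05 in edgeR's test.

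The other effectors did not pass. Bst2, tetherin, which holds budding virions at the cell surface, was at 14.0 to 17.2 CPM with vehicle and 15.2 to 22.0 CPM with BCAA, with overlapping groups and a log2 fold change of 0.27 (interval -0.03 to 0.58). Mx1, a dynamin-like GTPase that traps viral nucleocapsids, was at 1.96 to 2.86 and 2.50 to 2.72 CPM, with a log2 fold change of 0.11 (interval -0.43 to 0.64). Its relative Mx2 had 0 to 2 counts with vehicle and 0 to 9 with BCAA and was not tested.

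**Figure D3:**
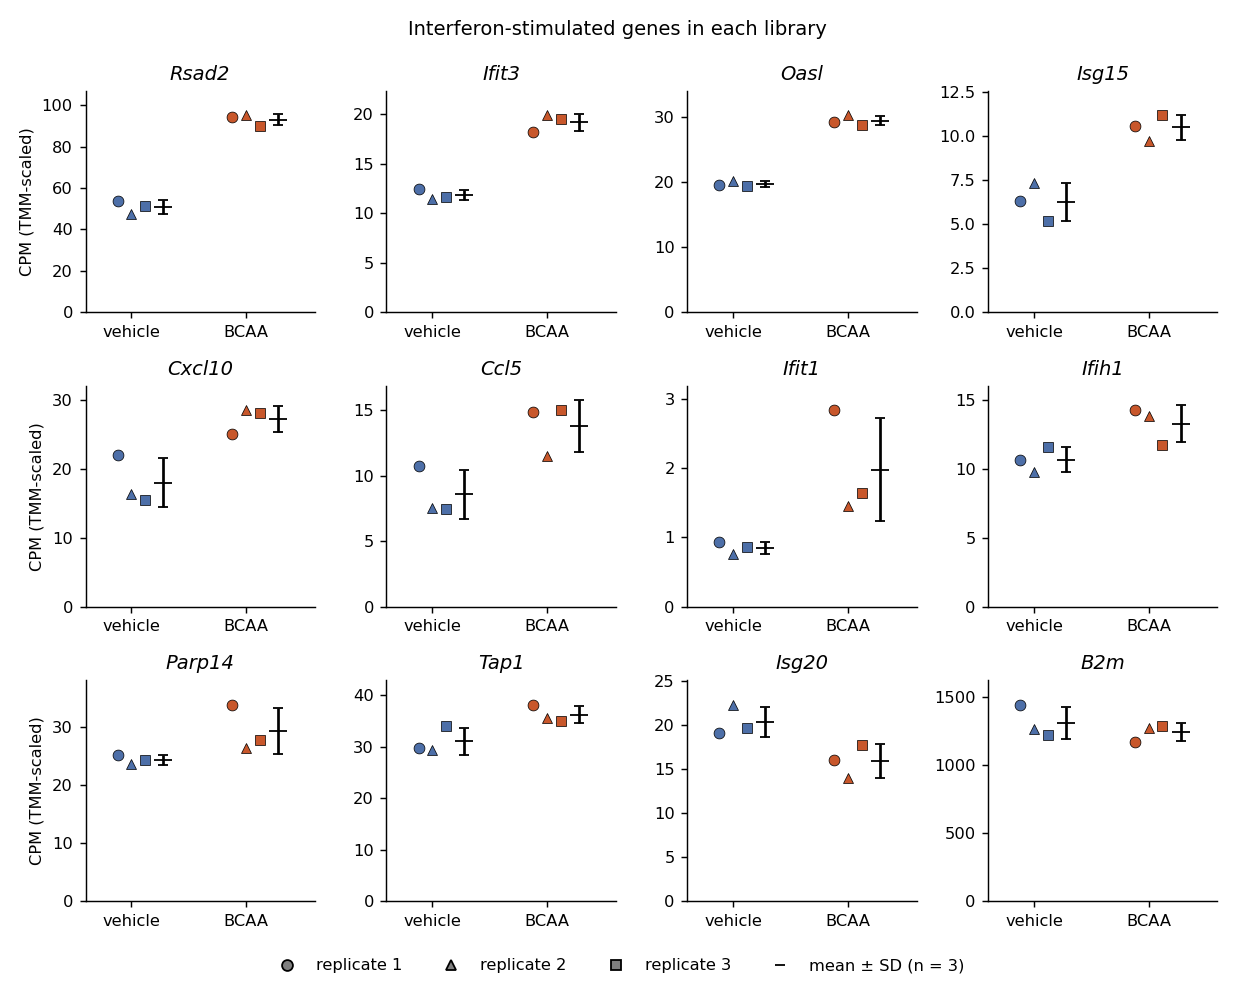
Level in CPM on TMM-scaled library sizes (y axes from 0) of 12 members in each vehicle and BCAA library, with a marker shape per replicate and the mean ± SD beside (n = 3). The panels are B2m and the 11 members with an unadjusted p under 0.05 in edgeR's test, so they were picked for a difference. The groups are apart in all panels except that of B2m, and Isg20 is the panel in which BCAA lies lower. Over all 35 members tested the groups overlapped in 23. Of all genes tested, 9.29% lay wholly above vehicle with BCAA and 8.76% wholly below.

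The sensors showed small differences. Ifih1, which encodes MDA5, the sensor of long double-stranded RNA, was at 10.6, 9.77 and 11.6 CPM with vehicle and at 14.2, 13.8 and 11.7 CPM with BCAA. The groups did not overlap, but BCAA replicate 3 was only just above vehicle replicate 3. Its log2 fold change was 0.32 (SE 0.13) with an adjusted p of 0.359. Ddx58, which encodes RIG-I, the sensor of RNA with a 5′ triphosphate, was at 1.90 to 3.87 CPM with vehicle and 2.83 to 3.83 CPM with BCAA. Its log2 fold change of 0.14 (interval -0.44 to 0.72) turned to -0.12 without vehicle replicate 2. Dhx58, which encodes LGP2, a modulator of the other two, had a log2 fold change of 0.13 (interval -0.49 to 0.75).

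Eif2ak2 encodes PKR, the kinase that stops translation on double-stranded RNA. It was at 25.1 to 27.0 CPM with vehicle and 24.6 to 28.2 CPM with BCAA, a log2 fold change of 0.05 (interval -0.16 to 0.26). Zbp1, the sensor of Z-form nucleic acid, had no count in any library, which allows up to 3 counts, or 0.190 to 0.235 CPM, in each. Such floors cover counting error only.

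Isg15, Usp18, Herc6 and Trim25, the 4 members of the next role group, were all higher in sign, beside 50.8% of all genes tested. Isg15, the ubiquitin-like modifier itself, was at 6.30, 7.36 and 5.17 CPM with vehicle and 10.6, 9.75 and 11.2 CPM with BCAA. All BCAA libraries lay above all vehicle libraries. The log2 fold change was 0.73 (SE 0.16, interval 0.39 to 1.07) and edgeR's adjusted p was 0.071, so it did not pass. It passed with DESeq2 (adjusted p = 0.0196), in edgeR with every gene kept (0.0183) and in edgeR with vehicle replicate 1 left out (0.0194). These fits called 131, 124 and 491 genes in all, beside 28 with edgeR, the filter and all 6 libraries. Over all 12 alternatives the adjusted p of Isg15 ran up to 0.265.

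Usp18, the protease that removes ISG15 and damps the receptor, was at 4.19 to 6.34 CPM with vehicle and 5.83 to 7.12 CPM with BCAA, with a log2 fold change of 0.25 (interval -0.16 to 0.66). Herc6, a ligase for ISG15 in rodents, was at 2.73 to 3.58 and 2.97 to 5.53 CPM, with a log2 fold change of 0.41 (interval -0.12 to 0.94) that was 0.18 without BCAA replicate 1. Trim25, the ubiquitin ligase that activates RIG-I, was at 8.59, 10.1 and 7.83 CPM with vehicle and 14.0, 11.1 and 8.92 CPM with BCAA. Its groups overlapped, with BCAA replicate 1 highest, and its log2 fold change was 0.36 (interval -0.01 to 0.73), and 0.18 without that library.

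None of the 4 transcription factors that drive the response passed the threshold, and their log2 fold changes were 0.06 to 0.13. Stat2, a subunit of the complex that binds the response element, was at 52.2, 58.2 and 53.7 CPM with vehicle and at 56.2, 67.7 and 54.8 CPM with BCAA, a log2 fold change of 0.12 (interval -0.08 to 0.32) that was 0.02 without BCAA replicate 2. Irf9, the DNA-binding subunit of that complex, had 0.13 (interval -0.12 to 0.37). Irf1, which interferon gamma induces, had 0.10 (interval -0.11 to 0.30). Irf7, which amplifies type I interferon production, was at 1.93 to 3.996 CPM with vehicle and 2.27 to 3.36 CPM with BCAA, with a log2 fold change of 0.06 (interval -0.59 to 0.72). Groups overlapped for all 4 factors, as they did for 10078 of the 12298 genes tested. The upper bounds for Stat2, Irf9 and Irf1 lay below the log2 fold changes of Rsad2, Ifit3 and Oasl, while that for Irf7 (0.72) left room for a change of the size of Ifit3 or Oasl.

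Of the interferon-inducible chemokines, Cxcl10 and Ccl5 were higher in every BCAA library. Cxcl10, which attracts T cells through CXCR3, was at 22.0, 16.3 and 15.5 CPM with vehicle and 25.1, 28.5 and 28.1 CPM with BCAA. Vehicle replicate 1 was the highest of its group and nearest to the BCAA libraries. This was a log2 fold change of 0.60 (SE 0.13), with an edgeR adjusted p of 0.0712. Ccl5, which attracts T cells and monocytes, was at 10.7, 7.55 and 7.44 CPM with vehicle and 14.9, 11.5 and 15.02 CPM with BCAA. Again vehicle replicate 1 was the highest vehicle library. Its log2 fold change was 0.68 (SE 0.17), with an adjusted p of 0.115.

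Without vehicle replicate 1 the log2 fold change was 0.77 for Cxcl10 and 0.88 for Ccl5, with edgeR adjusted p of 0.000263 and 0.00279. Both genes also passed with DESeq2 (adjusted p of 0.00745 and 0.0295) and without the low-count filter (0.00819 and 0.021). Over all genes, 491 of 12489 passed without vehicle replicate 1, 131 of 12298 with DESeq2 and 124 of 16570 without the filter. With edgeR, the filter and all 6 libraries it was 28 of 12298. Without another library the adjusted p was up to 0.314 for Cxcl10 and up to 0.411 for Ccl5. Cxcl11, another CXCR3 ligand and the neighbour of Cxcl10, had 2, 5 and 2 counts with vehicle and 5, 10 and 10 with BCAA and did not pass the filter.

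**Figure D4:**
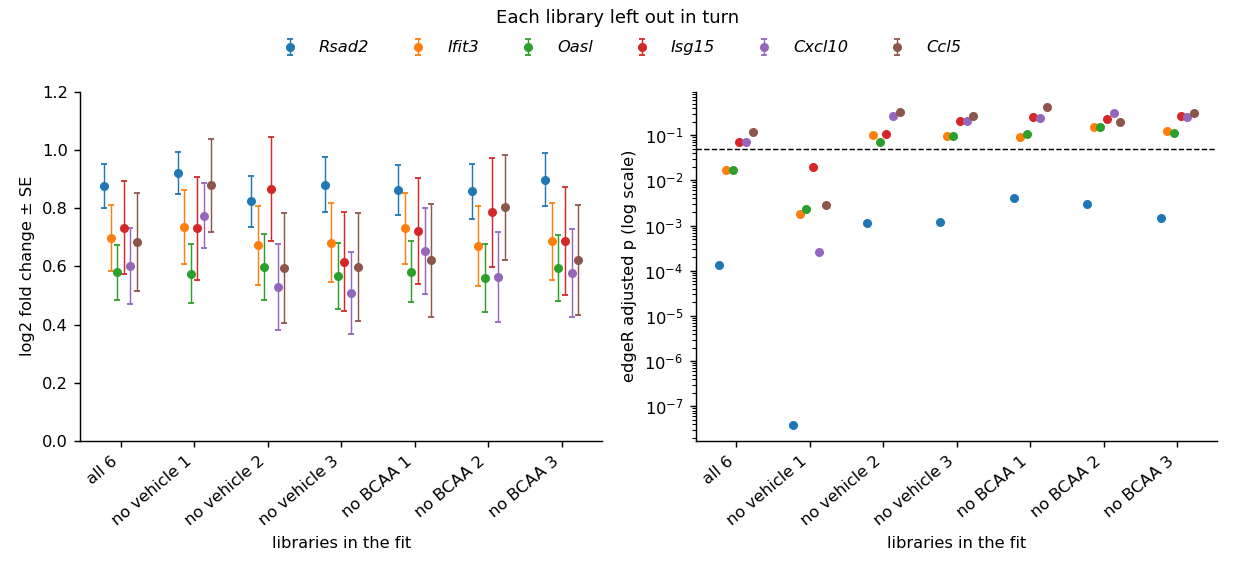
Log2 fold change ± SE (left) and edgeR adjusted p on a log axis (right, dashed line at 0.05) of 6 members with all 6 libraries and with each library left out in turn. Rsad2 is below the line in every fit, Ifit3 and Oasl with all libraries and without vehicle replicate 1, and Isg15, Cxcl10 and Ccl5 without vehicle replicate 1 alone. Without that library 491 of 12489 genes passed, beside 28 of 12298 with all 6.

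The ADP-ribosyltransferases, guanylate-binding proteins and other induced genes gave 9 members, of which none passed; 6 were higher and 3 lower in sign, with a median of 0.06. Parp14, an ADP-ribosyltransferase, was at 25.2, 23.5 and 24.2 CPM with vehicle and 33.7, 26.3 and 27.8 CPM with BCAA. The groups did not overlap, and BCAA replicate 1 was well above the rest. Its log2 fold change was 0.27 (SE 0.11, adjusted p = 0.352 with edgeR), and 0.15 without BCAA replicate 1. The same locus holds Dtx3l and Parp9, whose proteins form one ligase complex. Dtx3l was at 4.01 to 5.72 and 4.69 to 6.81 CPM, with a log2 fold change of 0.25 (interval -0.19 to 0.70) that was 0.07 without BCAA replicate 1, and Parp9 had 0.06 (interval -0.13 to 0.26).

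Gbp2, a guanylate-binding GTPase that attacks the membranes around pathogens, was at 33.7 to 40.4 CPM with vehicle and 33.5 to 38.2 CPM with BCAA, a log2 fold change of -0.01 (interval -0.22 to 0.20). Gbp5, of the same family, had 0.19 (interval -0.16 to 0.55). Ifi44 and its neighbour Ifi44l had 0.06 and 0.17, Samd9l, a restriction factor for viral translation, had -0.15, and Xaf1, a pro-apoptotic zinc finger protein, had -0.27 on 0.696 to 1.43 CPM. The intervals of these 5 genes spanned 0 and their groups overlapped.

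In class I presentation, Tap1, a subunit of the transporter that carries peptides into the endoplasmic reticulum, was at 29.8, 29.4 and 34.1 CPM with vehicle and 38.2, 35.6 and 35.0 CPM with BCAA. The groups did not overlap, with vehicle replicate 3 just below BCAA replicate 3. The log2 fold change was 0.22 (SE 0.09) with an adjusted p of 0.364. B2m, the invariant light chain of class I molecules, was at 1442, 1264 and 1221 CPM with vehicle and 1167, 1273 and 1284 CPM with BCAA. Its groups overlapped and its log2 fold change was -0.08 (interval -0.23 to 0.08), so at this depth a change of the size of Rsad2 lay outside the interval.

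Over the 35 genes tested, the median deviation of log2 CPM from each gene's 6-library mean was -0.03, -0.19 and -0.08 with vehicle and 0.15, 0.11 and 0.06 with BCAA. The 3 vehicle libraries were thus below the 3 BCAA libraries, and vehicle replicate 1 was the nearest to them. Vehicle replicate 1 was the highest vehicle library for 19 of the 35 genes, vehicle replicate 2 for 9 and vehicle replicate 3 for 7. Among BCAA libraries the highest was replicate 1 for 11 genes, replicate 2 for 13 and replicate 3 for 11.

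**Figure D5:**
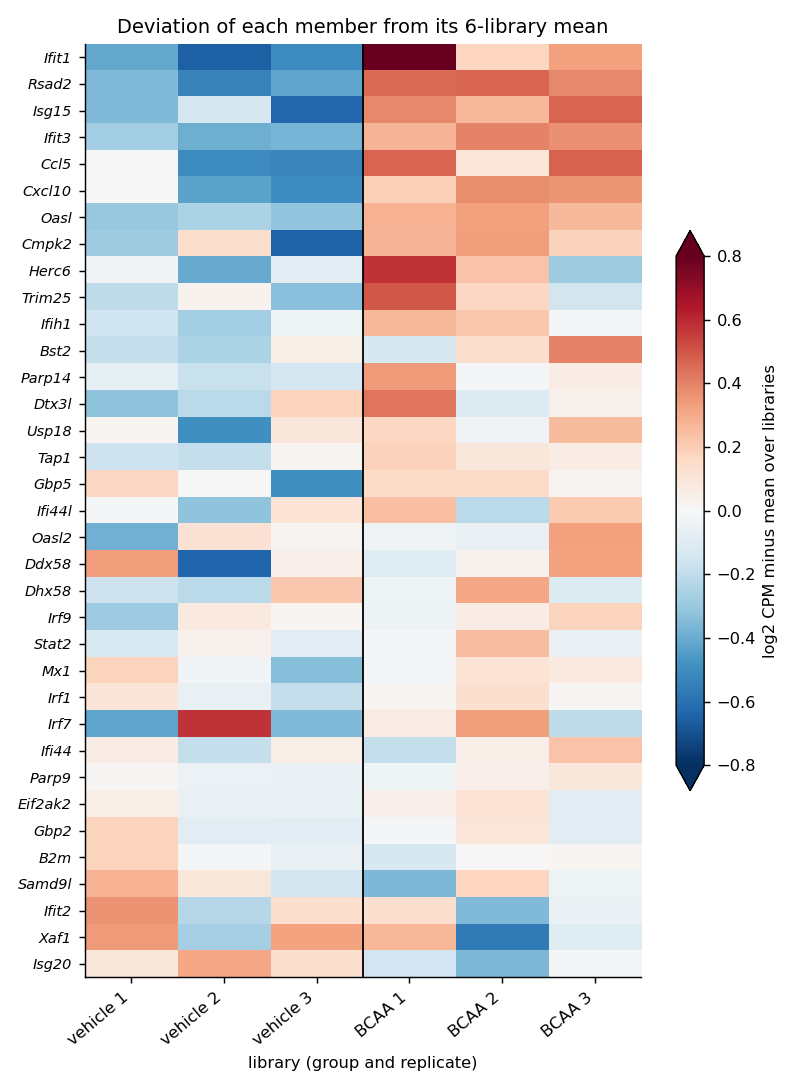
Deviation of log2 CPM from the 6-library mean (colour) for the 35 members tested (rows, ordered by log2 fold change) in each library (columns). The upper rows, from Ifit1 to Oasl, are below their mean in each vehicle library and above it in each BCAA library, apart from Ccl5 and Cxcl10 in vehicle replicate 1, which lie near their mean.

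Fold changes were set beside the matches to the response element. Of the 28 genes with a RefSeq promoter that were tested, the 18 with a match had a median log2 fold change of 0.18 (range -0.36 to 0.87, 14 higher in sign) and the 10 without one had 0.12 (range -0.15 to 0.58, 9 higher in sign). Both ends of the range with a match, Isg20 and Rsad2, and the rise of Oasl without one are in the sequences printed above. Among all genes, 267 that were tested and had a RefSeq promoter held a match (2.89% of 9223), and their median log2 fold change was -0.02. These medians are descriptions with no test.

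The other genes of the interferon pathway were taken from a list of 114 symbols, of which 108 were in the table and 88 were tested. None passed the threshold with edgeR or with DESeq2. At an unadjusted p under 0.05, edgeR gave 6 higher (6.82% of 88, beside 5.95% of all genes) and 2 lower, and DESeq2 gave 5 in all. Their median log2 fold change was 0.03. Without vehicle replicate 1, 1 of the 88 passed, Tbk1, beside 491 of all 12489 genes tested in that fit.

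Of 9 interferon genes looked up, 8 were found in the table under their symbols (Ifna1 was not), and none of the 8 was above traces. Ifnb1, Ifna2, Ifna4, Ifng, Ifnl1 and Ifnl3 had no count in any library, which allows up to 0.235 CPM each in the shallowest library. Ifne, an epithelial type I interferon, was at a mean of 0.271 CPM with vehicle and 0.222 CPM with BCAA, and Ifnk was at 0 and 0.0450 CPM.

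The receptors and the JAK-STAT proteins were well expressed, and none of 11 had an unadjusted p under 0.05 in edgeR's test. The median log2 fold change was 0.02, and the extremes were -0.16 and 0.12. Tyk2, a receptor kinase, had 0.12 (SE 0.08), Ifngr2, a chain of the interferon gamma receptor, had -0.16 (SE 0.11), and Ifnlr1, a chain of the interferon lambda receptor, had 0.12 (SE 0.10).

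Among 12 sensing adaptors and kinases tested, 3 had an unadjusted p under 0.05 in edgeR's test, all higher. The share that was higher by this rule was 6.82% over all 88 pathway genes and 5.95% over all genes. Tbk1, the kinase that activates IRF3, was at a mean of 49.0 CPM without and 57.4 CPM with BCAA, a log2 fold change of 0.23 (SE 0.08, adjusted p = 0.287 with edgeR). Without vehicle replicate 1 its log2 fold change was 0.29 and edgeR's adjusted p was 0.0338, in a fit that called 491 of 12489 genes. Traf6, a ubiquitin ligase of Toll-like receptor signalling, was at 12.2 and 15.6 CPM, a log2 fold change of 0.35 (SE 0.12), and Ikbke, a relative of TBK1, was at 86.9 and 97.6 CPM, a log2 fold change of 0.17 (SE 0.07). Mavs, the mitochondrial adaptor of RIG-I and MDA5, had -0.03 (SE 0.10).

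Of 8 other IRF factors and IRF2-binding proteins none passed. Irf4, mainly a lymphocyte and macrophage factor, was at 0.771 and 1.45 CPM, a log2 fold change of 0.92 (SE 0.39, adjusted p = 0.377 with edgeR). Irf2bp2, a corepressor, had 0.18 (SE 0.09). Of 9 feedback inhibitors tested none passed. Tnfaip3, which encodes the ubiquitin editor A20, was at 78.3 and 68.7 CPM (-0.19, SE 0.08), while Trim24 had 0.24 (SE 0.12) and Pias3 0.17 (SE 0.10). Socs1, the main inhibitor of JAK kinases in this pathway, was at 3.46 and 3.60 CPM.

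Of 36 other interferon-induced genes tested, none passed. In edgeR's test 2 had an unadjusted p under 0.05 and a higher level (5.56%, beside 5.95% of all genes), with 1 lower. Adar, which edits double-stranded RNA and so hides it from MDA5, was at a mean of 18.6 CPM without and 23.5 CPM with BCAA (log2 fold change 0.34, SE 0.12, adjusted p = 0.302 with edgeR). Helz2, a helicase coactivator, was at 14.4 and 19.4 CPM (0.44, SE 0.17) with overlapping groups. Ifitm3, which blocks virus entry at endosomes, was at 244 and 207 CPM (-0.24, SE 0.10), also with overlapping groups. The median of the 36 was 0.02, and 21 were higher in sign.

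Other genes of class I presentation gave 12 tested, none past the threshold and none with an unadjusted p under 0.05 in edgeR's test, with a median of -0.05. Those with the smallest p were Calr, a chaperone of class I folding (-0.08, SE 0.07), RT1-A2, a class I heavy chain (0.10, SE 0.09), and Psmb8, an immunoproteasome subunit (0.11, SE 0.13). Reads of the near-identical RT1 genes may be split between them.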

How the data were processed

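The authors deposited raw read counts per gene for each of 6 libraries. The submitters' processing notes name Trimmomatic, FastQC, STAR, HTSeq and rn6. Tool versions, annotation and strand setting: not given in the sources used here, so overlapping and antisense genes cannot be separated with certainty. Columns were matched to library titles. The table has 21857 rows, 5287 with no count in any library.

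Counts were fitted with edgeR 4.0.16 (R 4.3.3; TMM, filterByExpr with minimum count 10 and minimum total 15, robust quasi-likelihood test, group as the only term), leaving 12298 genes. P-values were adjusted by Benjamini-Hochberg over all of them. The SE is the size of the log2 fold change divided by the square root of F. Alternatives were DESeq2 1.42.0, its size factors in edgeR, no scaling, no filter, at least 1 CPM in at least 3 libraries, a replicate block and leaving out each library. Scripts were tested on simulated data.

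The chi-square per degree of freedom between libraries was 2.65 to 18.1 (genes with at least 10 counts in a pair), so none was a copy of another. The members, role groups and other lists were chosen with earlier results of these data known. Named genes are members past the threshold, those with an unadjusted p under 0.05, the 3 with the smallest p in each role group and, from each other list, the 3 with the smallest p; others named (Mavs, Socs1, the ligands, markers) were added for their role after values were seen. A few genes that this rule or these lists take are not reported here. RefSeq promoters (GRCr8) use the first listed start of a gene; counts used another build, and GRCr8 served only for sequence and gene order.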

Additional observations from a re-analysis of the deposited data

How the results depend on the processing

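The number of members past the threshold was 3 with DESeq2 size factors, without scaling factors and with the stricter filter, as with all 6 libraries and TMM scaling. It was 6 with DESeq2 (Wald test) and 6 without the low-count filter, in both cases Rsad2, Ifit3, Oasl, Isg15, Cxcl10 and Ccl5. Leaving out 1 library gave 1 to 6 members, 6 (the same genes) without vehicle replicate 1 and 1, Rsad2, without any other. All were higher with BCAA. With the replicate number as a block 1 member passed, Rsad2, and the adjusted p was 0.17 for Ifit3 and 0.162 for Oasl at log2 fold changes of 0.70 and 0.58. Same-numbered libraries of the 2 groups did not all deviate together (correlation of deviations -0.066, 0.105 and -0.146 for numbers 1, 2 and 3 across 12298 genes, and 0.039, 0.439 and 0.17 across the 35 members), and those numbered 2 alone correlated best with their own number across all genes. Their totals were similar, the labels give the numbers no meaning, and whether they pair the libraries is not known. Over all genes the count was 28, and it was 131 with DESeq2 (57 higher, 74 lower), 124 without the filter (57 higher, 67 lower) and 6 with the block (1 higher, 5 lower). It ran from 7 to 491 with 1 library left out, 491 without vehicle replicate 1 (216 higher, 275 lower). Without scaling factors 11 were higher and 18 lower. Of the other pathway genes 0 passed, except 1 without vehicle replicate 1, so leaving out a library gave 0 to 1. The median of the members was 0.17 to 0.26 with 1 library left out, highest without vehicle replicate 3. Of 252 values for 21 named members, 229 kept direction and side of the threshold and 2 changed sign. DESeq2 gave no adjusted p for Ifit1, Herc6, Dtx3l and Ddx58, and these values were counted as not past the threshold. With 1 library left out, Ddx58 ran from -0.12 (without vehicle replicate 2) to 0.39 and Eif2ak2 from -0.0008 (without BCAA replicate 2) to 0.10. The cause of these shifts was not tested. The members with a mean under 2 CPM in both groups, Ifit1, Cmpk2, Xaf1 and Dhx58, had SEs of 0.29 to 0.38, so depth limits what can be said of them.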
